A study of Mus musculus with 9 samples.

Results

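The 8 genes described here are Atoh1, Spdef, Klf4, Gfi1, Creb3l1, Foxa1, Foxa2 and Foxa3, the transcription factors that commit intestinal epithelial cells to the secretory lineage and carry goblet cells to maturity. They were taken by name as a set, through the RefSeq accession that each array probe carries. No cutoff on a measured value was used, but the set was chosen with earlier results of these data known. They are 8 of the 15346 named genes tested, and 6618 probes without a name were tested beside these, 21964 features in all. Each was read by 1 probe, and its name was the same in both versions of the probe annotation that the scanner files carry.

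The tissue was normal colonic mucosa of ICR mice, which are outbred, and its total RNA was labelled with Cy3 and hybridised to 9 Agilent arrays. Every mouse had weekly subcutaneous injections of 1,2-dimethylhydrazine (DMH), a carcinogen that produces colon tumors in rodents, at 20 mg/kg for 20 weeks. The DMH group (3 arrays) drank plain water. The other groups had 1.5% butyrate in their water. Butyrate is a fermentation product of gut bacteria that colonocytes burn and that inhibits histone deacetylases. One butyrate group came from mice without tumors (3 arrays) and the other from mice with tumors (3 arrays). Tumor status follows the sample titles, and the label's own tumor status entry contradicts them for each of the 6 butyrate samples. If that entry is right, the values given for the butyrate groups change places and every difference between them turns sign. The labels give no age or sex and do not say that the arrays came from separate animals, and the p-values reflect array-to-array spread, which may be technical. All groups compared here thus carry DMH.

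Cells of the colonic crypt choose between an absorptive fate and a secretory fate through Notch signaling between neighbours. Where Notch is active, the repressor Hes1 keeps Atoh1 silent and the cell becomes an absorptive colonocyte; where Notch is low, Atoh1 is switched on and the cell enters the secretory lineage. Downstream factors then direct it to become a goblet cell, which makes the mucus barrier, or an enteroendocrine cell, which makes gut hormones.

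Levels are log2 signals minus the 75th percentile of the signals on the same array, so a level of 0 is that percentile and a difference of 1 is a doubling. A probe's brightness depends on its sequence, and levels were compared between arrays for 1 gene, never between genes. A spot counts as well above background when the scanner software found its signal clearly over the local background. Of the 8 probes, 7 were well above background on all 9 arrays. Foxa1 was so on 7 arrays and not on the first array of either butyrate group. No spot of the 8 genes was saturated. Foxa2 had 10 spots per array, whose log2 SD was 0.022 to 0.085, and the others had 1 spot.

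The arrays differed in brightness. The 75th percentile ran from 739.8 to 822.4 intensity units on the DMH arrays and from 188.0 to 879.8 on the butyrate arrays, lowest on the first array with tumors and next lowest, at 281.3, on the first without. The 4 slides and 2 scan days split the DMH from the butyrate arrays completely, and neither slide nor scan day can be told apart from butyrate. All 13 epithelial markers examined, such as Epcam and Krt20, were well above background on all 9 arrays.

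The windows just before the transcription start were read for the genes whose levels differed most clearly from DMH or followed each other most closely across arrays. RefSeq promoter windows (GRCm38.p6) were found for 7 of the 8 genes, Creb3l1 being the one without, and the 250 bases before the start were used, from the most upstream start where a gene has several. Capitals mark E-boxes, the CANNTG motif to which basic helix-loop-helix factors such as Atoh1 bind. The windows of Atoh1 (chr6:64728875-64729124, plus strand), Spdef (chr17:27728952-27729201, minus strand), Klf4 (chr4:55532476-55532725, minus strand) and Foxa3 (chr7:19023540-19023789, minus strand) read, 5′ to 3′:
Atoh1: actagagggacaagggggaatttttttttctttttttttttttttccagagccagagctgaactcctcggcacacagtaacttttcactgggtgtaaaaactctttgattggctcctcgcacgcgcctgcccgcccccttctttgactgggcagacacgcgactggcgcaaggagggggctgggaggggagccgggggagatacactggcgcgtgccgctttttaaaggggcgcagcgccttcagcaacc
Spdef: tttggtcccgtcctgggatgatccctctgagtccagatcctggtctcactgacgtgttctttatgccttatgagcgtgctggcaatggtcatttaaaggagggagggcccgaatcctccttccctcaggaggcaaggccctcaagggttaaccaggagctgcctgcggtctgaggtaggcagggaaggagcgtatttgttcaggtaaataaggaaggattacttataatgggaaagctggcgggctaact
Klf4: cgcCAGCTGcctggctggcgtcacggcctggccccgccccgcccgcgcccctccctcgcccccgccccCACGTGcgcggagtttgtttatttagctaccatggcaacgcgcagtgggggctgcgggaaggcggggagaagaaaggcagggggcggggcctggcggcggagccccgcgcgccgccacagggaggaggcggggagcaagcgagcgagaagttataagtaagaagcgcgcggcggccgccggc
Foxa3: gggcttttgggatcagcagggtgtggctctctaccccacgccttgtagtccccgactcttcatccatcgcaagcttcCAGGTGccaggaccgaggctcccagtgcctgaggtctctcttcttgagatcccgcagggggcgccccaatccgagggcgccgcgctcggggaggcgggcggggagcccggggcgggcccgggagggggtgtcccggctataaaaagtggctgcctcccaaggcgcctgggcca

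No E-box lay in the Atoh1 and Spdef windows. The Klf4 window held 2, one of them CAGCTG, and the Foxa3 window held 1. Over the 7 genes, 4 windows had an E-box, against 66.2% of the 32851 windows in the table, and 1 had CAGCTG, which is itself an E-box, against 13%. The other motifs were searched on both strands. TGTTTAC, read by forkhead factors such as the Foxa proteins, was in 1 of 7 windows, that of Foxa1, against 3.2% of all windows. CACCC, read by Klf factors, was in 4 of 7 against 52.0%, and GGAA, the core read by ETS factors such as Spdef, in 5 of 7 against 93.4%. TATAAA was in 1 of 7, that of Foxa3, against 12.4%. The Klf4 window was rich in G and C (74.0%, against a median of 52.4% over all windows).

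Atoh1, the basic helix-loop-helix factor that starts the secretory program, was lower in butyrate-treated mucosa on every array. Its level was -0.59, -0.85 and -0.65 on the 3 DMH arrays, -1.88, -1.50 and -1.15 without tumors, and -3.02, -1.56 and -2.69 with tumors. The DMH arrays lay close together and above all 6 butyrate arrays, and the butyrate groups overlapped. With tumors Atoh1 fell by 1.73 ± 0.36 (SE) on the log2 scale relative to DMH, a 3.31-fold difference (limma, adjusted p = 0.0401). Without tumors the difference was -0.82 ± 0.36 (adjusted p = 0.118), and over all 6 butyrate arrays it was -1.27 ± 0.40 (adjusted p = 0.0706). All p-values are adjusted by Benjamini and Hochberg over the 21964 features, and a gene is called where that value is under 0.05. In RNA from whole mucosa, fewer cells of a type and less RNA per cell cannot be told apart.

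Gfi1, a zinc-finger repressor that acts after Atoh1 and steers progenitors to goblet rather than enteroendocrine fate, did not follow Atoh1. Its level was -0.62, -0.79 and -0.71 with DMH alone, 0.61, 0.13 and -0.10 without tumors, and 0.11, -0.68 and -1.49 with tumors. Every array without tumors lay above the DMH arrays, while those with tumors spread to both sides of them. Without tumors the difference from DMH was 0.92 ± 0.37, with a 95% interval of 0.07 to 1.77 (adjusted p = 0.092). With tumors it was 0.02 ± 0.37 (-0.83 to 0.87, adjusted p = 0.98). Neither passed the test, nor did the 6 butyrate arrays together (0.47, adjusted p = 0.451).

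Spdef, an ETS factor required for goblet cells to mature, had the largest called difference of the 8 genes. Its level was 3.35, 3.01 and 3.12 on the DMH arrays, 2.20, 0.91 and 2.35 without tumors, and 0.54, 1.35 and 0.42 with tumors. All 6 butyrate arrays lay below all DMH arrays, and the second array without tumors reached down into the range of the group with tumors. Spdef fell by 2.39 ± 0.40 with tumors (5.24-fold, adjusted p = 0.029) and by 1.34 ± 0.40 without (2.53-fold, adjusted p = 0.0364). Over all butyrate arrays it fell by 1.86 ± 0.45 (3.64-fold, adjusted p = 0.038), and 2.47% of the 21964 features differed by more. That call was lost without any 1 DMH array (adjusted p = 0.127 to 0.146), without the second array without tumors (0.0768) and without the first with tumors (0.0526), with differences of -1.94 to -1.71.

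Klf4, a zinc-finger factor of goblet cells and of the mature colonic surface, moved least among the called genes and most evenly. Its level was 6.55, 6.44 and 6.34 with DMH alone, 5.96, 5.83 and 5.71 without tumors, and 5.60, 5.72 and 5.65 with tumors. The lowest DMH array was above the highest butyrate array, and the SD within groups was 0.06 to 0.12. Klf4 fell by 0.79 ± 0.14 with tumors (1.73-fold, adjusted p = 0.0326), by 0.61 ± 0.14 without (1.53-fold, adjusted p = 0.0166) and by 0.70 ± 0.15 over all butyrate arrays (1.62-fold, adjusted p = 0.0316). These calls depend on the scaling of the arrays. With quantile scaling the same differences were -0.46, -0.25 and -0.35, with adjusted p-values of 0.086, 0.184 and 0.135.

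Creb3l1, a factor held in the endoplasmic reticulum membrane and released during goblet cell maturation, was low on most butyrate arrays. Its level was -0.23, -0.41 and -0.35 on the DMH arrays, -1.64, -0.87 and -0.15 without tumors, and -2.75, -1.14 and -1.67 with tumors. All arrays with tumors lay below the DMH arrays, while the third array without tumors was above them. The difference with tumors was -1.53 ± 0.46, with a 95% interval of -2.58 to -0.47 (2.88-fold, adjusted p = 0.0783). Without tumors it was -0.56 ± 0.46 (-1.61 to 0.50, adjusted p = 0.375). Neither passed the test, nor did all butyrate arrays together (-1.04 ± 0.47, adjusted p = 0.164).

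None of the 3 forkhead factors, which open chromatin at gut endoderm genes, was called by limma in any of the comparisons with DMH; Foxa3 had an unadjusted p under 0.05 in 2 of the 3, and Foxa1 and Foxa2 in 0. Foxa3 had levels of 1.75, 1.67 and 1.77 on the DMH arrays, 0.95, 1.26 and 1.62 without tumors, and 0.03, 1.01 and 0.77 with tumors. All 6 butyrate arrays were below all DMH arrays. Its difference from DMH was -1.13 ± 0.27 with tumors (2.18-fold, adjusted p = 0.0512), just short of a call, -0.46 ± 0.27 without (adjusted p = 0.227) and -0.79 ± 0.30 overall (adjusted p = 0.113).

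Foxa2, which with Foxa1 is needed for goblet and enteroendocrine differentiation, had levels of 2.08, 1.91 and 1.87 with DMH alone, 1.44, 3.04 and 3.21 without tumors, and 2.44, 2.56 and 2.11 with tumors. It was above all DMH arrays on 5 of 6 butyrate arrays and below them on the first array without tumors. The differences of 0.61 ± 0.42 without tumors (-0.35 to 1.57, adjusted p = 0.287) and 0.42 ± 0.42 with tumors (-0.54 to 1.38, adjusted p = 0.529) did not pass the test. Leaving out that first array gave 1.17 ± 0.19 without tumors (adjusted p = 0.0106).

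Foxa1 was measured least well. Its level was -2.71, -0.74 and -0.73 on the DMH arrays, -6.65, -3.04 and -3.09 without tumors, and -6.06, -0.04 and -0.11 with tumors. The values of -6.65 and -6.06 are those not well above background, on the dimmest pair of arrays. Both spots had the same processed signal, 2.8 intensity units, and these levels differ only through the arrays' 75th percentiles. The arrays without tumors were all below the DMH arrays, and with tumors 2 were above and 1 far below. The differences from DMH were -2.87 ± 1.67 without tumors (-6.68 to 0.95, adjusted p = 0.215) and -0.68 ± 1.67 with tumors (-4.49 to 3.14, adjusted p = 0.809). Both rest on a value not above background and are not read as sizes. Without the first array with tumors the latter became 1.32 (adjusted p = 0.465), on the other side of 0.

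**Figure D1:**
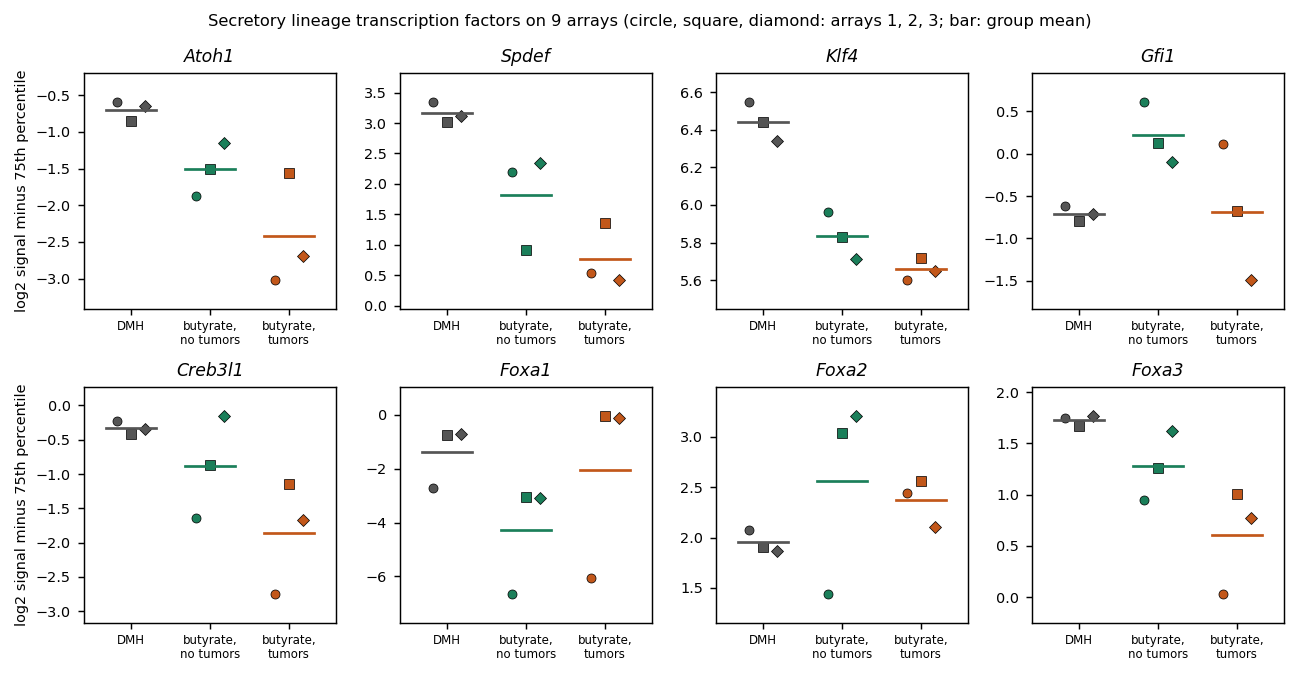
Log2 signal minus the array's 75th percentile for each of the 8 genes on 9 arrays, by group (DMH, butyrate without tumors, butyrate with tumors), with a scale of its own in each panel; circles, squares and diamonds are arrays 1, 2 and 3 and bars are group means. All butyrate arrays lie below all DMH arrays for Atoh1, Spdef, Klf4 and Foxa3.

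**Figure D2:**
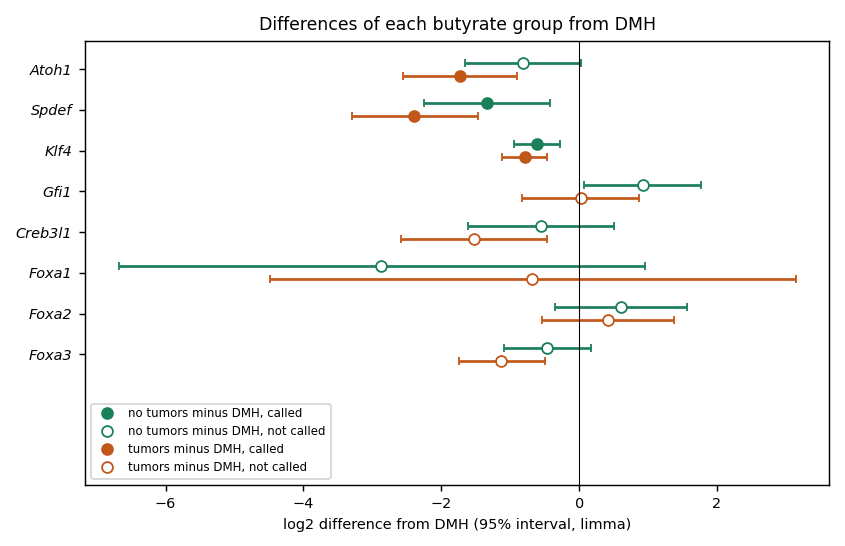
Log2 difference of each butyrate group from DMH with its 95% interval from limma; filled points have an adjusted p under 0.05. Spdef and Klf4 are filled in both groups and Atoh1 in the group with tumors, and the Foxa1 intervals are the widest, -6.68 to 0.95 and -4.49 to 3.14.

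Counted over the set, butyrate against DMH gave 2 genes called lower (Spdef and Klf4) and 0 called higher out of 8, where 9.2% of all 21964 features were called, 3.35% lower and 5.85% higher. The median difference was -0.92 over the 8 genes and 0.08 over all features, and 6 of 8 differences were below 0, against 45.0% of all features. The groups did not overlap for 4 genes, all lower with butyrate, against 11.9% of all features that were lower without overlap. Leaving out any 1 of the 3 DMH arrays, or the second array without tumors, left 0 of the 8 genes called in this comparison. Without the third array without tumors Spdef alone was called, and without the first with tumors Klf4 alone. Calls over all features moved the same way: the 2020 called became 210, 7 and 8 without DMH array 1, 2 or 3, 17 with slide as a random block and 4 with DMH arrays 2 and 3 averaged.

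Without tumors, 2 of 8 genes were called lower (Spdef and Klf4) and 0 higher, against 13.8% of all features called lower, 16.6% higher and 30.5% in all. The median difference was -0.59, and the groups did not overlap for 5 genes lower and 1 higher (Gfi1), against 27.2% and 32.8% of all features. This comparison called so much of the array that 2 of 8 is not far from its background. Leaving out the second array without tumors, or any 1 DMH array, left 0 called. Without the first array without tumors Spdef was at -1.53 (adjusted p = 0.0513).

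With tumors, 3 of 8 genes were called lower (Atoh1, Spdef and Klf4) and 0 higher, against 2.26% of all features called lower, 3.44% higher and 5.7% in all. The median difference was -0.96, and the groups did not overlap for 5 genes lower and 1 higher (Foxa2), against 19.5% and 23.1% of all features. Without the third array with tumors, or any 1 DMH array, 0 of the 8 genes were called. Without the second array without tumors, which enters through the shared spread, Spdef alone was called. Atoh1 also lost its call without the third array without tumors (adjusted p = 0.0552) and without the first with tumors (-1.43, adjusted p = 0.059). The 3 comparisons share the DMH arrays, so they are not independent of one another.

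Between the butyrate groups, 0 of 8 genes were called by limma, against 13.5% of all features. At an unadjusted p under 0.05, 4 of the 8 passed (Atoh1, Spdef, Gfi1 and Foxa3), against 34.6% of all features. All groups overlapped, where 33.4% of all features did not. Atoh1 was 0.91 ± 0.36 higher without tumors than with (95% interval 0.08 to 1.74, adjusted p = 0.118), Spdef 1.05 ± 0.40 (0.14 to 1.97, adjusted p = 0.106), Gfi1 0.90 ± 0.37 (0.05 to 1.75, adjusted p = 0.129) and Foxa3 0.67 ± 0.27 (0.04 to 1.30, adjusted p = 0.128). The larger fall of Atoh1 and Spdef in the group with tumors was therefore not shown to differ from that in the group without.

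Leaving out single arrays brought some of these differences past the threshold. Without the first array with tumors, Gfi1 was called (1.30, adjusted p = 0.0155). Foxa1 was called too (-4.18, adjusted p = 0.0294), but its group without tumors includes the first array, where its spot was not well above background. Without the second array with tumors Atoh1 was called (1.34, adjusted p = 0.0241), and without the second array without tumors Spdef was (1.51, adjusted p = 0.0402). Slide 1 held the 3 arrays without tumors and the first with tumors. With slide as a block, which compares within that slide, the group with tumors is that 1 array, the one with the highest lymphocyte marker median, and its spread is assumed to be like that of the others. The differences were 1.51 ± 0.51 for Atoh1 (adjusted p = 0.158), 1.28 ± 0.67 for Spdef (0.311), 0.10 ± 0.43 for Gfi1 (0.911), 1.87 ± 0.58 for Creb3l1 (0.139) and 1.24 ± 0.32 for Foxa3 (0.0974).

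Atoh1, Creb3l1 and Foxa3 ranked the 6 butyrate arrays in the same order. From lowest to highest these were arrays 1 and 3 with tumors, array 1 without, array 2 with, and arrays 2 and 3 without. Relative to the DMH mean, the lowest array gave -2.32 for Atoh1, -2.42 for Creb3l1 and -1.70 for Foxa3, and the highest gave -0.46, 0.18 and -0.12. Spdef ranked the arrays in another order, and on the second array without tumors it lay 2.25 below the DMH mean while Atoh1 lay 0.81 below. Klf4 varied little, from -0.84 to -0.49.

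Likeness was measured as the root mean square difference over the 9 arrays between 2 genes, each taken relative to its own DMH mean, which is smaller for genes that move little. Among the 8 genes it was smallest for Atoh1 with Creb3l1 (0.32 log2 units), then Creb3l1 with Foxa3 (0.34) and Klf4 with Foxa3 (0.38). Spdef was nearest to Atoh1, at 0.65. Among all named genes, those nearest to Spdef were Mettl7b (0.398), Aqp12 (0.42) and Muc2 (0.43), the gel-forming mucin of goblet cells. Those nearest to Klf4 were Tor1b (0.056), Krt19 (0.081), a keratin of simple epithelia, and Nudt18 (0.087). Those nearest to Atoh1 were Hpd (0.102), Rep15 (0.188) and C2cd4c (0.205). All 9 arrays are shared by these genes, so array brightness and tissue makeup are shared too.

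**Figure D3:**
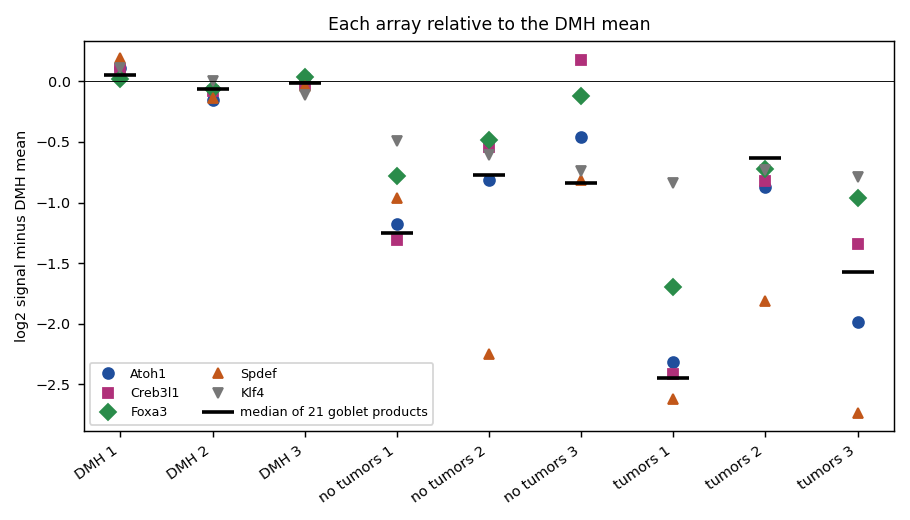
Log2 signal relative to the DMH mean on each of the 9 arrays for Atoh1, Creb3l1, Foxa3, Spdef and Klf4; the black bar is the median of 21 goblet cell products. The lowest Atoh1, Creb3l1 and Foxa3 values are on the first array with tumors, and Spdef lies apart from them on the second array without tumors.

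Some of the Notch pathway genes that sit before Atoh1 were called, in counts near the shares of all features called without and with tumors. Of 18 listed genes 16 were measured, and butyrate against DMH called 1 higher and 2 lower (5.85% and 3.35% of all features), with a median difference of 0.10. Without tumors 3 were called higher and 3 lower (16.6% and 13.8% of all features), with tumors 0 and 1 (3.44% and 2.26%), and between the butyrate groups 0 of 16 (limma). For all butyrate, 0 were called without any 1 DMH array; without tumors, 1 higher and 0 lower.

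Dll1, a Notch ligand made by early secretory cells, had levels of -0.16, -0.16 and -0.18 on the DMH arrays, 1.00, 1.11 and 0.91 without tumors, and 0.47, 0.62 and -0.08 with tumors. Both butyrate groups lay above DMH without overlap. It rose by 1.18 ± 0.20 without tumors (2.26-fold, adjusted p = 0.00556), and the difference with tumors was 0.50 ± 0.20 (adjusted p = 0.135). Dll4, the other main crypt ligand, fell by 1.21 ± 0.36 without tumors (adjusted p = 0.0358) and by 1.22 ± 0.30 over all butyrate arrays (adjusted p = 0.0415).

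Hes1, the Notch target that represses Atoh1, was not called. Its level was 0.24, 0.22 and 0.18 on the DMH arrays, -0.46, -0.06 and 0.16 without tumors, and -1.08, -0.02 and -0.28 with tumors, so it too was lower with butyrate on every array. Its difference was -0.33 ± 0.28 without tumors (adjusted p = 0.391) and -0.67 ± 0.28 with tumors (adjusted p = 0.155). Hes6, which opposes Hes1, fell by 1.25 ± 0.35 without tumors (adjusted p = 0.0296). With tumors it overlapped DMH, with a difference of -0.47 ± 0.35 (adjusted p = 0.391). Over all butyrate arrays its difference was -0.86 ± 0.37 (adjusted p = 0.147).

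Maml1, the coactivator of the Notch complex, rose by 0.79 ± 0.23 without tumors (adjusted p = 0.035) and by 0.83 ± 0.21 over all butyrate arrays (adjusted p = 0.0415). The corepressors Cbfa2t2 and Cbfa2t3, which act with lineage factors in crypt cells, went opposite ways. Cbfa2t2 rose by 0.62 ± 0.16 without tumors (adjusted p = 0.0243), and Cbfa2t3 fell by 0.82 ± 0.27 without tumors (adjusted p = 0.0494), by 1.16 ± 0.27 with tumors (adjusted p = 0.047) and by 0.99 ± 0.25 overall (adjusted p = 0.0438).

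Of 15 genes for enteroendocrine, tuft, Paneth and stem cells, butyrate against DMH called 1 lower, and the comparisons without and with tumors called 3 and 1 lower, with 0 higher in each. These counts are near or below the shares of all features called, 9.2%, 30.5% and 5.7%. Without any 1 DMH array they were 0, 1 and 0. Bhlha15, which expands the secretory apparatus of exocrine cells, was called in all 3 and fell by 1.73 ± 0.30 overall (3.33-fold, adjusted p = 0.0229). Its level was -0.03, -0.14 and 0.06 on the DMH arrays, -2.31, -1.35 and -1.18 without tumors, and -2.39, -1.44 and -1.96 with tumors, with no overlap between DMH and butyrate. Sox4 (-1.42 ± 0.40, adjusted p = 0.0294) and Gfi1b (-0.70 ± 0.19, adjusted p = 0.0243), a tuft cell factor related to Gfi1, fell without tumors. Gfi1b was well above background on only 2 of the 3 arrays without tumors, so the size of its fall is not read. With tumors Gfi1b differed from DMH by 0.34 ± 0.19 (adjusted p = 0.255), and over all butyrate arrays by -0.18 (adjusted p = 0.739). Neurog3, which starts the enteroendocrine lineage, differed from DMH by -0.44 ± 0.29 over all butyrate arrays (adjusted p = 0.337), and Sox9, of stem and Paneth cells, by -0.46 ± 0.43 (adjusted p = 0.483).

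Of 16 listed factors of absorptive cells and of the whole intestinal epithelium, 15 were measured. Butyrate against DMH called 1 higher and 2 lower (5.85% and 3.35% of all features). The comparison without tumors called 1 and 2 (16.6% and 13.8%), and that with tumors 0 and 3 (3.44% and 2.26%). The medians were -0.50, -0.57 and -0.64. Leaving out 1 DMH array left 0 called for all butyrate, 0 with tumors and 0 or 1 without tumors. Klf5, a crypt cell relative of Klf4, fell by 1.29 ± 0.24 (2.44-fold, adjusted p = 0.0261), and Cdx2, which sets intestinal identity, by 1.13 ± 0.31 (2.19-fold, adjusted p = 0.0496) over all butyrate arrays. Cdx1 fell by 1.54 ± 0.35 with tumors (adjusted p = 0.0465) and Maf by 0.74 ± 0.23 without (adjusted p = 0.041). Creb3l3, a membrane-held relative of Creb3l1 in absorptive cells, rose by 1.21 ± 0.29 (2.32-fold, adjusted p = 0.0372). Hnf4a, the nuclear receptor of colonocytes, differed by -0.43 ± 0.31 (adjusted p = 0.36).

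Goblet cell products were low with butyrate as Spdef was. Of 24 listed genes 21 were measured. All 21 differences of butyrate from DMH were below 0, with a median of -1.29. Of these 8 were called lower and 0 higher, against 3.35% of all features called lower. Without tumors 6 were called lower (13.8% of all features) and with tumors 7 (2.26%). In each 0 were called higher, and the medians were -1.05 and -1.57. The 8 and 7 calls became 0 without any 1 DMH array, with DMH arrays 2 and 3 averaged and with slide as a random block. The 6 without tumors became 2, 2 and 0. The medians stayed at -1.30 to -1.27 for all butyrate under these settings. Without the second array without tumors, the 8, 6 and 7 calls became 0, 2 and 0.

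Tff3, the trefoil peptide of mucus, fell by 2.12 ± 0.43 (adjusted p = 0.0286), and Fcgbp, a mucin-binding protein, by 2.06 ± 0.45 (adjusted p = 0.0317). Spink4, a secreted protease inhibitor of goblet cells, fell by 2.03 ± 0.40 (adjusted p = 0.0276). Clca1, a mucus metalloprotease, fell by 1.59 ± 0.37 (adjusted p = 0.0366), Agr2, the disulfide isomerase that folds mucins, by 1.47 ± 0.38 (adjusted p = 0.0442), and Xbp1, a factor of the unfolded protein response, by 0.70 ± 0.19 (adjusted p = 0.0494).

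Muc2 had levels of 7.78, 7.54 and 7.62 with DMH alone, 6.70, 6.19 and 6.40 without tumors, and 4.25, 6.31 and 5.03 with tumors. All butyrate arrays were below all DMH arrays. It fell by 2.45 ± 0.45 with tumors (adjusted p = 0.0323), and the overall difference was -1.83 ± 0.51 (adjusted p = 0.0523). Tpsg1 fell by 2.28 ± 0.48 with tumors (adjusted p = 0.0401).

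Markers of whole cell types moved beside the 8 genes. The 13 epithelial markers had a median difference of -0.63 with butyrate. Of these 4 were called lower and 0 higher, against 3.35% of all features called lower. Their array medians relative to DMH were -0.71 to -0.24 without tumors, -0.91 to -0.33 with tumors and -0.07 to 0.08 on the DMH arrays. Each array was therefore also centred on its median over these 13 genes, a scaling chosen after the values were seen. Krt8 had no value on the first array of either butyrate group, so the medians there rest on the other markers. Centring raises the median of all features to 0.64, 0.59 and 0.69 for all butyrate arrays, those without and those with tumors. On this scale Spdef fell by 1.30 ± 0.39 (adjusted p = 0.0288) over all butyrate arrays and by 1.79 ± 0.35 with tumors (adjusted p = 0.0102), and Atoh1 fell by 1.12 ± 0.35 with tumors (adjusted p = 0.0377). Spdef without tumors was at -0.82 ± 0.35 (adjusted p = 0.082). Klf4 was at -0.14 ± 0.21 overall (adjusted p = 0.615), -0.09 without tumors and -0.18 with tumors, so none of its calls held. Gfi1 rose by 1.44 ± 0.42 without tumors (adjusted p = 0.0223).

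Other lists differed from array to array. The lymphocyte list (12 of 13 genes measured) had its highest array median, 3.03 above DMH, on the first array with tumors, the one where Atoh1, Creb3l1 and Foxa3 were lowest; on the other butyrate arrays it was -0.26 to 1.05. Without that array the difference with tumors was -1.43 for Atoh1 (adjusted p = 0.059), -2.27 for Spdef (0.0451), -0.76 for Klf4 (0.039), -1.08 for Creb3l1 (0.13) and -0.84 for Foxa3 (0.0591). Smooth muscle markers were higher with butyrate, by a median of 1.26 over 13 genes. Of these 3 were called higher and 0 lower, against 5.85% of all features called higher. Their array medians were 0.38 to 1.88 without tumors, 0.72 to 1.56 with tumors and -0.33 to 0.42 on the DMH arrays. Enteric neuron and glia markers had a median of 1.30, with 4 of 13 called higher (5.85% of all features) and 0 lower. The epithelial, smooth muscle and neuron calls for all butyrate became 0 without any 1 DMH array. The 13 enteroendocrine markers had array medians of -1.74 to -0.82 with tumors and -0.42 to 0.38 without. The neutrophil list (6 of 10 genes measured) had array medians of -4.16 to -3.51 without tumors and -2.39 to 0.32 with tumors. Without tumors 5 of 6 were called lower (13.8% of all features), with a median of -4.19. With tumors 1 of 6 was (2.26%), with a median of -0.74. Squamous markers (8 of 11 measured) had a median of -1.67 without tumors, with 4 called lower (13.8% of all features). With tumors the median was -0.78, with 1 called lower (2.26%). In each comparison 6 of the 8 squamous differences were below 0. Only 3 of the 6 neutrophil and 5 of the 8 squamous genes were well above background on all 9 arrays. The medians of these 2 lists therefore rest partly on values not above background and are not read as sizes. Endothelial markers had medians of 0.59 and -0.07, and fibroblast markers of -0.16 and 0.00. The part of these cell types in the differences of the 8 genes was not tested.

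**Figure D4:**
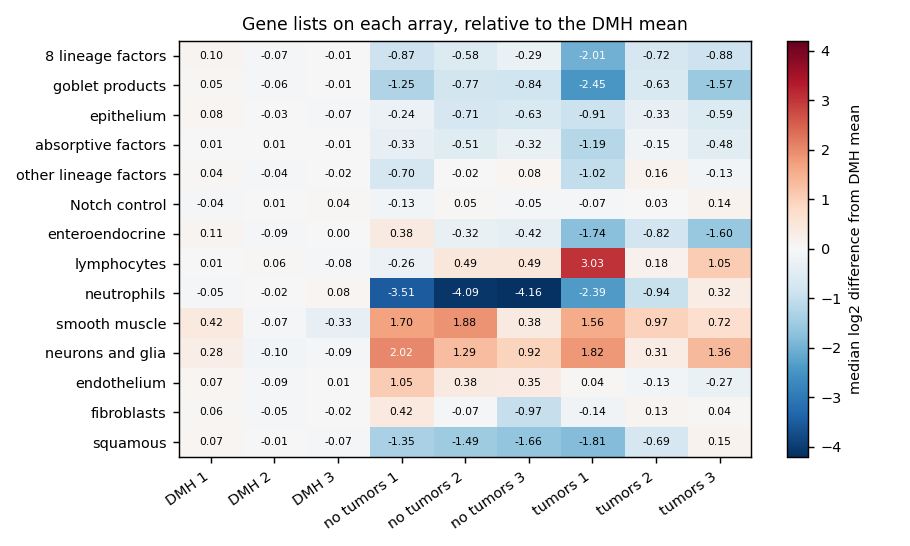
Median log2 difference from the DMH mean of each gene list (rows) on each of the 9 arrays (columns), with the value printed in each cell and blue for lower, red for higher. The 8 lineage factors are lowest on the first array with tumors (-2.01), as are the goblet cell products (-2.45), on the array where lymphocyte markers are highest (3.03).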

How the data were processed

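The 9 scanner files hold 43379 spots of 41174 probes each; the 1639 control spots of each were not used. Per the file headers and the submitters' processing notes, the deposited intensity values (gProcessedSignal) had background subtracted by Agilent Feature Extraction 10.5.1.1 and were not scaled to one another. The authors' deposited value table holds log2 values of 21829 probes, 7 of the 8 member probes among them (not Foxa1). Against the scanner files each column was the log2 signal less a constant (SD of what remained up to 0.0081), with medians of 2.714 to 3.201. What the constant stands for is unknown.

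Outlier spots were dropped and replicate spots averaged. Values were log2 intensity minus the array's 75th percentile. Probes well above background on at least 3 arrays with at least 2 values per group were kept (28521), and the brightest probe stood for a gene. limma 3.58.1 in R 4.3.3 (lmFit, eBayes, 2-sided moderated test) compared all butyrate arrays with DMH in a fit of 2 groups and made the other comparisons in 1 fit of 3 groups. P-values were adjusted by Benjamini and Hochberg over 21964 features, with calls under 0.05. Precision is limited by how few arrays there are. The code was tested on simulated data. There, 31 to 44 of 100 features changed by 1 log2 unit were called, depending on the comparison, and 69 to 81 of 100 changed by 2. False calls numbered 9 to 103, with the 103 between the butyrate groups.

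The 8 genes, the gene lists and the tests were chosen with earlier results of these data known. The text names the 8 genes, up to 4 called genes of smallest p per pathway list and comparison, the fixed genes Hes1, Dll1, Sox9, Neurog3, Gfi1b, Hnf4a, Cdx2, Muc2, Tff3, Fcgbp, Clca1, Agr2 and Xbp1, and the 3 nearest named genes of each called member; 1 gene that this rule names is not reported here. Alternatives were other scalings, background correction (normexp, offset 50), the authors' values, other filters, joins and fits, blocks for replicate number or slide, and left-out arrays. Files were read with pandas 2.3.3 and numpy 2.4.6 under Python 3.11.15, and plots drawn with matplotlib 3.10.9.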

Additional observations from a re-analysis of the deposited data

Results flagged for a closer look

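Among the 6 butyrate arrays, the gap of the lowest or highest array to its nearest neighbour was examined. This was done for the 8 genes and for the list genes that the naming rule above gives, not for the whole array. Chance alone marks about 1 in 20 such groups. None of the 8 lineage factors stood out. Klf5 did, with a level of 3.09 on the first array with tumors against 3.92 to 4.22 on the others. Spink4 only just did, with 6.79 on the second array with tumors against 4.68 to 5.46 on the others. Klf5 and Spink4 are about as many as chance alone would mark among the genes examined. Neither is therefore read as a true outlier.

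Differences between the butyrate groups passed the test in Gfi1b and Ern2, neither of them among the 8 lineage factors. In this comparison 13.5% of all features were called. Gfi1b was lower without tumors than with, by a log2 difference of -1.04 ± 0.19 (limma, adjusted p = 0.018). The Gfi1b call was lost without array 2 of the group without tumors and without array 3 of the group with tumors. Its levels without tumors were -4.29, -4.3 and -3.96, and only 2 of these were well above background. The size of this difference is therefore not read. Ern2, the stress sensor of goblet cells, was higher without tumors by 1.38 ± 0.29 (adjusted p = 0.0245). The Ern2 call was lost without any 1 array of the group without tumors. It was also lost without array 3 of the group with tumors and without DMH array 2 or 3.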

How the results depend on the processing

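Of the 8 genes, 2, 2, 3 and 0 were called when DMH was compared with all butyrate arrays, those without tumors and those with tumors, and when the butyrate groups were compared. The same comparisons called 2020, 6694, 1252 and 2976 of all 21964 features. Leaving out 1 array gave 0 to 2, 0 to 3, 0 to 4 and 0 to 2 of the 8 genes. Over all features, leaving out 1 array gave 7 to 3626, 2841 to 9941, 4 to 1792 and 177 to 7774 calls. Below, counts in parentheses are all features called under the same setting. Quantile scaling gave 1 and 1 in the first and second comparison (1802 and 6545 of 21964). Normexp with quantile scaling gave 1, 1 and, between the butyrate groups, 1 (1772, 6392 and 2725 of 21970). The authors' values gave 1 for all butyrate, 5 with tumors and 3 between the groups (1197, 1956 and 4382 of 17085). With no filter on dim probes the counts were 0, 1 and 0 in the comparisons with DMH (511, 4908 and 190 of 32588). Array weights gave 7, 7, 5 and 1 (11649, 12729, 4966 and 7310 of 21964). Other groups in the fit gave 4, 4 and 1 (5052, 9697 and 356 of 21964). Slide as a random block gave 0, 0 and 0 in the comparisons with DMH (17, 1006 and 4 of 21964). So did DMH arrays 2 and 3 averaged (4, 2907 and 4 of 21964). These arrays were the most alike pair, with an SD of the difference of 0.36. Without the 4 arrays of slide 1, arrays 2 and 3 with tumors were the only butyrate arrays left. The count against DMH was then 4 (2504 of 21947). Centring on 13 epithelial markers, chosen after seeing the data, gave 1 for all butyrate and 1 without tumors (7471 and 8852 of 21964).

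With replicate number as a block, 0 genes were called for all butyrate, 3 without tumors and 0 with tumors. Over all 21964 features, 583, 6866 and 477 were called. Deviations of same-numbered arrays correlated at -0.01 to 0.264. Whether these arrays share more than a number cannot be told from such correlations.

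Some differences turned sign. Gfi1 with tumors became -0.04 (quantile), -0.01 (normexp), -0.16 (authors' values), -0.31 (array weights), 0.00 (DMH arrays averaged), -0.38 (without slide 1, and without the first array with tumors) and -0.03 (without the second DMH array). Foxa1 with tumors became 0.03 (normexp), 0.44 (array weights) and 1.32 (without slide 1, and without the first array with tumors). Without slide 1, the comparison of all butyrate holds only arrays with tumors and gave the same -0.38 for Gfi1 and 1.32 for Foxa1. Between the butyrate groups, Foxa1 was 1.80 with slide as a block, which sets 3 arrays, 1 not well above background, against 1 that was not, so that its sign is not read. Foxa2 was -0.04 and -0.13 without array 2 and without array 3 of the group without tumors. Leaving out 1 array, Gfi1 with tumors ranged from -0.38 to 0.42, Foxa1 with tumors from -1.69 to 1.32, and Foxa2 between the butyrate groups from -0.13 to 0.76. With epithelial centring Foxa3 without tumors was 0.06. None of these differences was called. The cause was not tested. Foxa1 has no value in the authors' table or among probes well above background on all 9 arrays, slide as a fixed block gives no comparison with DMH, and leaving out slide 1 leaves no array without tumors.

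Spdef kept a negative difference from DMH under every alternative run, -2.27 to -1.30 for all butyrate (adjusted p 0.00127 to 0.153, called under 13 of 22). Klf4 and Atoh1 stayed below 0, Klf4 at -0.76 to -0.14 (0.00082 to 0.615, called under 9 of 22) and Atoh1 at -1.43 to -0.71 (0.00775 to 0.242, called under 2 of 22). The authors' values changed the balance of calls over all features, to 3749 higher and 633 lower between the butyrate groups (1440 and 1536 in the values reported) and 414 and 1542 with tumors (756 and 496); epithelial centring gave 7263 and 208 for all butyrate (1285 and 735).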
